A study of Mus musculus with 3 samples.

Results

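The genes described here are 8 members of the Sonic hedgehog signaling pathway in the mouse palate: the ligand *Shh*, the membrane proteins *Ptch1*, *Smo* and *Hhip*, the transcription factors *Gli1*, *Gli2* and *Gli3*, and the target *Foxf2*. They were chosen by name, with earlier results of these data known, so their counts beside those of all genes are a description. All of their probe sets were taken, 20 of the 45037 that are not controls, and they stand for 8 of 18193 genes. Signals were measured before, during and after the fusion of the palatal shelves, on 3 Affymetrix mouse genome arrays with 1 array per stage. The tissue came from fetuses of the ICR strain labelled female. The maxilla was removed at E14 and kept in suspension culture, for 5 h before fusion, 24 h during fusion and 60 h after fusion, and all 3 stages shared the medium, the gas and the temperature. The labels give no treatment and no altered allele for any group. The edge of the separate shelves was dissected before fusion, and the tissue at the midline during and after it, so that stage, hours in culture and piece of tissue cannot be told apart. The explants lacked the tongue and had no blood supply from the fetus, and although the methods describe several samples per stage and RNA taken from each, they do not say how many entered an array.

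In the hedgehog pathway a secreted ligand binds the receptor Patched and so releases the membrane protein Smoothened, which acts through the primary cilium to change the balance between activator and repressor forms of the Gli transcription factors. In the palate, *Shh* is made by the epithelium, mainly on the oral side and in the rugae, the ridges of the oral palate, and the mesenchyme below answers it. That answer drives growth of the shelves, and loss of the signal leads to cleft palate in mice. *Ptch1*, *Gli1* and *Hhip* are themselves direct targets of the pathway, and are often read as its output.

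Each stage has a single array, so no test could be made and no p-value is given. Each value is the deposited MAS5 signal after scaling by a trimmed mean, and a gene's values are those of its brightest probe set. The floor of an array, 19.4 before, 13.4 during and 14.8 after fusion, was set from 80 probe sets of sensory receptors, at the 95th percentile of their signals, and a ratio with 1 side under it is given as a bound. The arrays hold 1 kind of spread, that among several probe sets for one gene. Its SD, for log2 ratios of signals above the floor, was 0.37 between the first and the second array, 0.46 between the first and the last and 0.44 between the second and the last. For signals over 100, where most of the members' brightest probe sets lay, it was 0.23, 0.31 and 0.26. It does not measure the difference between embryos. Levels of different probe sets depend on the probes and are not compared, and in whole tissue fewer cells of a type and less RNA per cell cannot be told apart.

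The sequence before the start of 3 genes is shown because *Ptch1* and *Foxf2* had the lowest ratios after fusion among the members for which a promoter was at hand, and *Hhip* was the member with a higher signal. They are the 250 bases 5′ of the start, in the direction of the gene, from RefSeq on GRCm38.p6, at chr13:63565736-63565985 on the minus strand for *Ptch1*, chr13:31625566-31625815 on the plus strand for *Foxf2* and chr8:80058009-80058258 on the minus strand for *Hhip*. Capitals mark CCACCC on either strand, the core letters shared by Gli binding sites and by the CACCC boxes of Klf and Sp factors.
Ptch1: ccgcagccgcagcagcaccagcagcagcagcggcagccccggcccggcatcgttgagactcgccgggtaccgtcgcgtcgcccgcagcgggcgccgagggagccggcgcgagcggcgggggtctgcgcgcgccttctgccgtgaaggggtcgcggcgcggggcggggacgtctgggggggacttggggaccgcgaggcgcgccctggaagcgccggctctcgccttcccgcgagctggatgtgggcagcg
Foxf2: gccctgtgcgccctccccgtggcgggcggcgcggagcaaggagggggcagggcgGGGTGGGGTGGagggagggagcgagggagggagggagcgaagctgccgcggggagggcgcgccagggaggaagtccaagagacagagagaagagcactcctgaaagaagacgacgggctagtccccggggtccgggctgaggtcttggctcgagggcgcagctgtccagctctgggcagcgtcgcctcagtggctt
Hhip: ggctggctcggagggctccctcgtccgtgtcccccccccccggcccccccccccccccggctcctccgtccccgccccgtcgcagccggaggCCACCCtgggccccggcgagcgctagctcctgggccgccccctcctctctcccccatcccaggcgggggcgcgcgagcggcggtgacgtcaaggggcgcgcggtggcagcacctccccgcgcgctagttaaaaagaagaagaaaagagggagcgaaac
The CCACCC letters were present in 5 of 6 member promoters, those of *Smo*, *Gli2*, *Gli3*, *Hhip* and *Foxf2*, and in 28.1% of the 32851 promoters of the same length. The *Foxf2* promoter held 2 overlapping matches, the *Hhip* promoter 1, and the *Ptch1* promoter none. The full Gli consensus GACCACCCA, sought on both strands and containing the shorter motif, was in 0 of 6 member promoters and in 0.225% of all. All 6 were rich in G and C, at 67.2% to 78.4% against a median of 52.4%, and held 15 to 41 CpG dinucleotides against a median of 6. A match is a description of letters and was not tied to binding, which was not measured. *Shh* and *Gli1* are named only.

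The signal of *Shh*, which encodes the ligand, was 1266 before, 943 during and 122 after fusion. It was a little lower during fusion and far lower after it, when 9.68% of the signal before fusion was left. The ratio for during over before fusion was -0.42 on the log2 scale, beside an SD of 0.23 between bright probe sets and 0.37 between all, and -2.94 for after over during fusion, many times the SD of 0.26 or 0.44. After fusion *Shh* was 10.3-fold lower than before. Of 11992 genes above the floor on both arrays, 9 had a lower ratio for after over before fusion, and of 12772 genes, 3 had a lower ratio for after over during fusion. A second, dimmer probe set of *Shh* read 47.7, 36.3 and 3.35, the last under the floor. It was 1.32-fold lower during fusion and at least 3.23-fold lower after fusion than before, in the same order as the brighter one.

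The receptor gene *Ptch1*, whose product holds Smoothened in check until ligand binds, had signals of 1795 before, 1168.5 during and 581 after fusion. The signal was lower at each step, by 1.54-fold and then 2.01-fold, to 3.09-fold lower after fusion than before. The difference between the first and the last array was larger than the spread between probe sets, with a log2 ratio of -1.63. The remaining probe sets of *Ptch1* lay near the floor. One read 21.0, 30.2 and 20.4, and the other 20.1, 3.49 and 14.8, and neither showed the order of the bright probe set. At those signals background makes up much of the value. With the median over all 3 probe sets in place of the brightest, the log2 ratio of *Ptch1* for after over before fusion was -0.44.

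*Smo* encodes the protein that carries the signal across the membrane. Its brightest probe set read 789.8 before, 623 during and 493 after fusion, and a second one 467, 401 and 354. Both were lower at each step by little: after fusion the brighter was 1.60-fold and the dimmer 1.32-fold lower than before, with log2 ratios of -0.68 and -0.40 against an SD of 0.31 between bright probe sets and 0.46 between all. The remaining probe set gave signals below the floor throughout.

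*Hhip* encodes a membrane protein that binds hedgehog ligands and takes them from the receptor. Its brightest probe set read 50.4 before, 34.9 during and 77.0 after fusion. The other 3 read 56.2, 34.8 and 50.0, then 38.7, 32.8 and 50.2, then 38.5, 29.2 and 52.3. All 4 were lowest during fusion. After fusion they were 2.21-fold, 1.44-fold, 1.53-fold and 1.79-fold higher than during it, and against the array before fusion 3 were higher, by 1.53-fold, 1.30-fold and 1.36-fold, and 1 was 1.12-fold lower. *Hhip* was the exception among the members: the other 7 were lower at both steps.

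The 3 Gli factors answer the signal in different ways. *Gli1*, an activator that is itself switched on by the pathway, has 1 probe set, which read 234 before, 126 during and 63.9 after fusion. Its signal was lower by 1.85-fold and then 1.98-fold, to 3.66-fold lower after fusion than before. The log2 ratios of -0.89 and -0.98 for the steps were both over 2 times the spread between all probe sets, 0.37 and 0.44. The second was less than 2 times the spread of 0.53 for that step among dimmer probe sets, between the floor and 100. *Gli2*, the main activator, read 472, 354 and 303 on the brightest probe set and 146, 127 and 115 on the other. Both were lower at each step, and after fusion they were 1.56-fold and 1.26-fold lower than before.

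*Gli3* acts mainly as a repressor when no ligand is present. Its brightest probe set read 406 before, 276 during and 203 after fusion, and the second read 375, 198 and 162. Both were lower at each step, and after fusion they were 2.00-fold and 2.31-fold lower than before. The dimmest read 33.3, 3.40 and 21.8, with the signal during fusion under the floor, so that it was lowest during fusion and 1.53-fold lower after fusion than before.

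*Foxf2* encodes a forkhead transcription factor of the palatal mesenchyme that depends on *Shh* signaling and whose loss causes cleft palate in mice. Its signal was 333 before, 169 during and 65.8 after fusion. It had the lowest ratio of the members during fusion, 1.97-fold lower than before, with 50.8% of the signal left, and after fusion it was 5.06-fold lower than before with 19.8% left. Of the genes above the floor on both arrays, 2.93% had a lower ratio for during over before, and 49 of 11992 (0.409%) for after over before fusion. The second *Foxf2* probe set gave signals below the floor throughout, and with it in a median over both the log2 ratio for after over before fusion was -1.37 in place of -2.34.

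**Figure D1:**
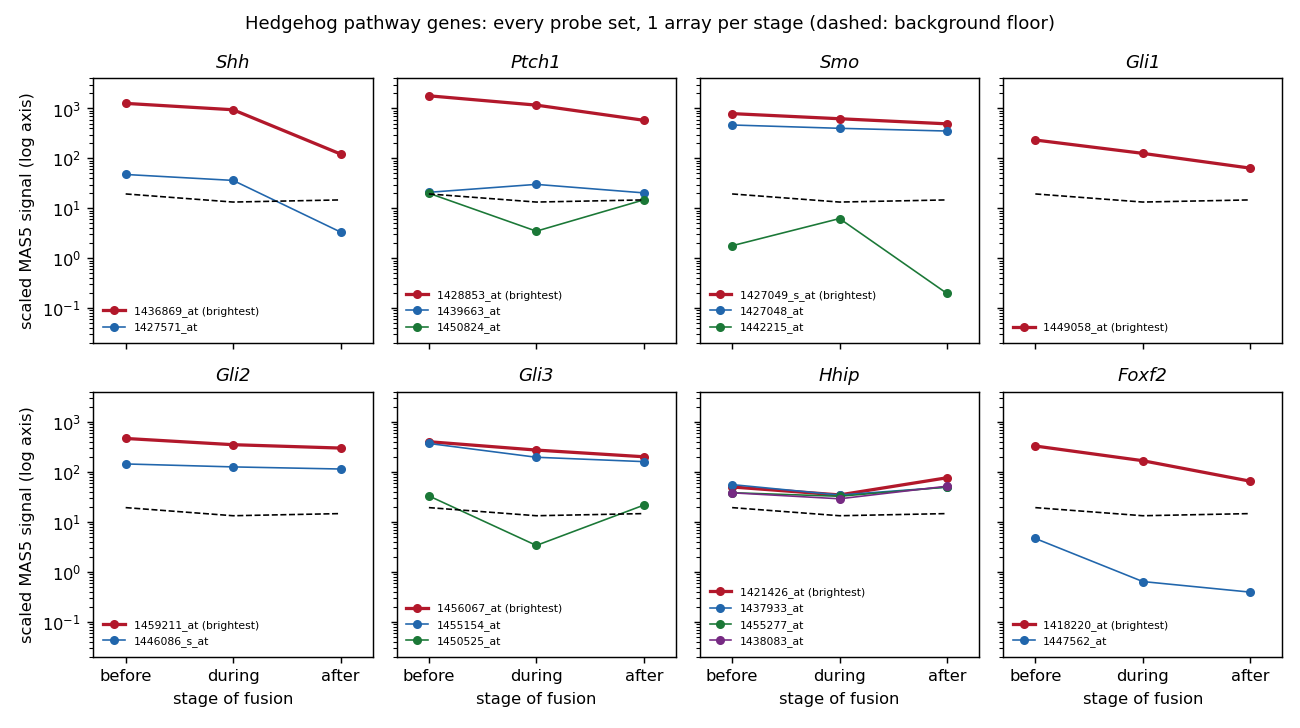
The 20 probe sets of the 8 hedgehog pathway genes, with stage of fusion (1 array each) against the scaled MAS5 signal on a log axis, the brightest probe set as the thick red line and the background floor dashed. The brightest probe sets run downward from left to right except that of *Hhip*, which is lowest at 34.9 during and highest at 77.0 after fusion.

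Set side by side, the members differed in when and by how much their signals were lower. During fusion all 8 were below their signal before fusion, with a median log2 ratio of -0.54, and none was 2-fold lower or 2-fold higher. Over all 13202 genes with a ratio, 3.36% were over 2-fold lower, 5.74% over 2-fold higher, and the median log2 ratio was -0.02. The members stood between 50.8% (*Foxf2*) and 78.9% (*Smo*) of their signal before fusion. *Gli1* and *Foxf2*, both read as targets of the pathway, had the lowest ratios, and *Shh* itself stood at 74.5%. *Shh* was lower mainly between the arrays during and after fusion, whereas for *Foxf2* and *Gli1* the log2 ratios of the first and the second step were -0.98 and -1.36, and -0.89 and -0.98. The differences between members were not tested.

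After fusion, 5 of the 8 were over 2-fold lower than before it (*Shh*, *Foxf2*, *Gli1*, *Ptch1* and *Gli3*), against 9.86% of 13577 genes, and none was over 2-fold higher, against 12.9%. *Gli3* sat at the threshold. The median log2 ratio of the members was -1.31, and that of all genes -0.08. Between the arrays during and after fusion 3 members were over 2-fold lower (*Shh*, *Foxf2* and *Ptch1*), against 5.13% of 14178 genes, and 1 was higher (*Hhip*), against 8.83%. Counted over both steps, 7 of 8 members were lower at each, against 30.5% of 11828 genes. The comparisons share arrays, so these counts are not separate pieces of evidence.

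**Figure D2:**
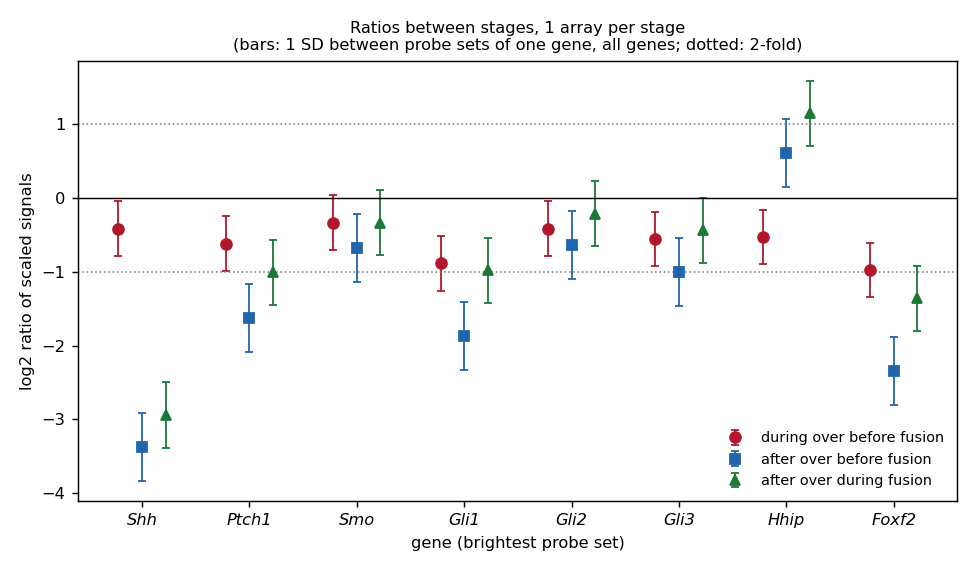
Log2 ratio of scaled signals between stages for the brightest probe set of each member, 1 array per stage, with bars of 1 SD between probe sets of one gene over all genes and dotted lines at 2-fold. *Shh* has the lowest ratios after fusion (-3.37 over before and -2.94 over during fusion), and only *Hhip* has ratios above 0.

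The choice of scaling did not turn the sign of any member's ratio. Over the 6 scalings tried, the signal of *Shh* after fusion was 0.0743 to 0.110 of that before, and that of *Hhip* 1.18 to 1.73 times. The number of members over 2-fold lower lay between 0 and 2 during fusion, and between 4 and 7 after fusion, both against the array before it. The share of all genes past 2-fold was counted with the trimmed mean alone, for the members and for the lists below. The poly-A controls, which gave the 7, moved the log2 ratios of all genes by a median of -0.38 for after over before fusion. The same 7 members were lower at both steps under each of the 6, while the share of all genes lower at both ran from 17.6% with the signals as deposited to 49.1% with the poly-A controls.

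Signals of cell type markers also differed between the stages, and the part of tissue composition in the members' ratios was not tested. The 12 pan-epithelial genes were all above the floor on the arrays before and after fusion. Of these, 7 were over 2-fold higher after fusion than before and none lower, against 12.9% and 9.86% of all genes. Their summed signal was 13272 before, 24301 during and 32403 after fusion. The last was 2.44 times the first, while *Shh*, made by epithelium, was 10.3-fold lower. The 3 brightest, the keratin genes *Krt8*, *Krt15* and *Krt14*, had log2 ratios of 1.47, 1.66 and 1.40 for after over before fusion. The signal of *Trp63*, a factor of basal epithelium, went the other way, with 544 before, 374 during and 334 after fusion, as did that of the epithelial splicing regulator *Esrp1*, with 902, 775 and 631. *Trp63* and *Esrp1* were picked after their values were seen, as the 2 genes of the list with lower signals. Divided by the summed signal of the 12 genes, the log2 ratio of *Shh* was -1.30 for during over before and -4.66 for after over before fusion. With the 6 genes left when the keratins were taken out, a choice made after seeing the data, it was -0.92 and -3.87. Against either sum *Shh* was lower at each stage than before fusion.

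For the genes of the mesenchyme the choice of reference mattered more. The summed signal of 11 general mesenchyme genes was 29241 before, 25576 during and 34381 after fusion. Its brightest genes, *Col3a1*, *Col1a2* and *Vim*, had log2 ratios of 0.19, 0.79 and 0.54 for after over before fusion. Against this sum, *Foxf2*, *Gli1*, *Ptch1* and *Gli3* had log2 ratios of -2.57, -2.10, -1.86 and -1.23. Without the collagen genes, *Fn1* and *Vim*, a choice made after seeing the data, the sum of the remaining 7 genes was 7496 before, 5516 during and 3576 after fusion, lower at each step. The log2 ratios of *Foxf2*, *Gli1* and *Ptch1* for after over before fusion were then -1.27, -0.80 and -0.56, still below 0, and those of *Gli3*, *Smo* and *Gli2* were 0.07, 0.39 and 0.43. That of *Hhip* was 1.68. During fusion the 7 members other than *Shh* had log2 ratios between -0.53 (*Foxf2*) and 0.10 (*Smo*) over this sum. The sum rested on its brightest genes: *Prrx1* and *Pdgfra* had log2 ratios of -2.39 and -1.33 for after over before fusion and *Pdgfrb* one of -1.12, whereas *Twist1*, *Zeb1*, *Prrx2* and *Zeb2* had -0.34, -0.30, 0.13 and 0.41. The ratios of *Gli3*, *Smo* and *Gli2* without a reference lay between those of the first 3 genes and the last 4.

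The palatal shelf list holds genes that mark the shelves, most of them for transcription factors of the mesenchyme. All 10 lay above the floor on all 3 arrays, and 7 were over 2-fold lower after fusion than before, against 9.86% of all genes. Their summed signal was 8811 before, 4376 during and 2862 after fusion, and the last was 0.325 of the first. Their log2 ratios ran from -2.97 (*Tbx22*) to -0.42, and 6 members lay inside this range, *Shh* below it and *Hhip* above it. Summed signals were lower in other lists too. That of 5 skeletal muscle genes was 973 before and 97.2 after fusion, and the ratio of after to before fusion was 0.126 for 3 erythroid, 0.493 for 6 chondrogenic and 0.538 for 4 endothelial genes. *Hba-a1* of the erythroid list and *Matn1* and *Comp* of the chondrogenic list were below the floor on all arrays. The erythroid sum rested on *Hbb-bh1*, at 723 before and 1.18 after fusion, the last under the floor. *Alas2* of that list and *Acan* of the chondrogenic list, picked after their values were seen, went the other way. Their log2 ratios for after over before fusion were 0.34 and at least 0.99. Osteogenic genes were higher: the 5 in the list summed to 247 before and 5737 after fusion. Only 2 of them lay above the floor before fusion, and *Ibsp*, at 4680, made up most of the last sum. Genes of ciliated cells were higher too, with 134 before, 1064 during and 5929 after fusion. Of these 6 genes 3 lay above the floor before fusion, and *Rsph1*, at 3495, made up most of the last sum. All 4 macrophage genes were over 2-fold higher after fusion than before, against 12.9% of all genes. The sum of 4 neuron genes was 2.44 times its first value, with log2 ratios of 2.96 for *Stmn2* and 1.40 for *Elavl3*. Those of *Tubb3* and *Elavl4* were 0.04 and -0.02. The part of these cell types in the members' ratios was not tested. Of 5 proliferation genes only *Mcm5*, at 1822 and 696, was over 2-fold lower after fusion than before, against 9.86% of all genes.

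**Figure D3:**
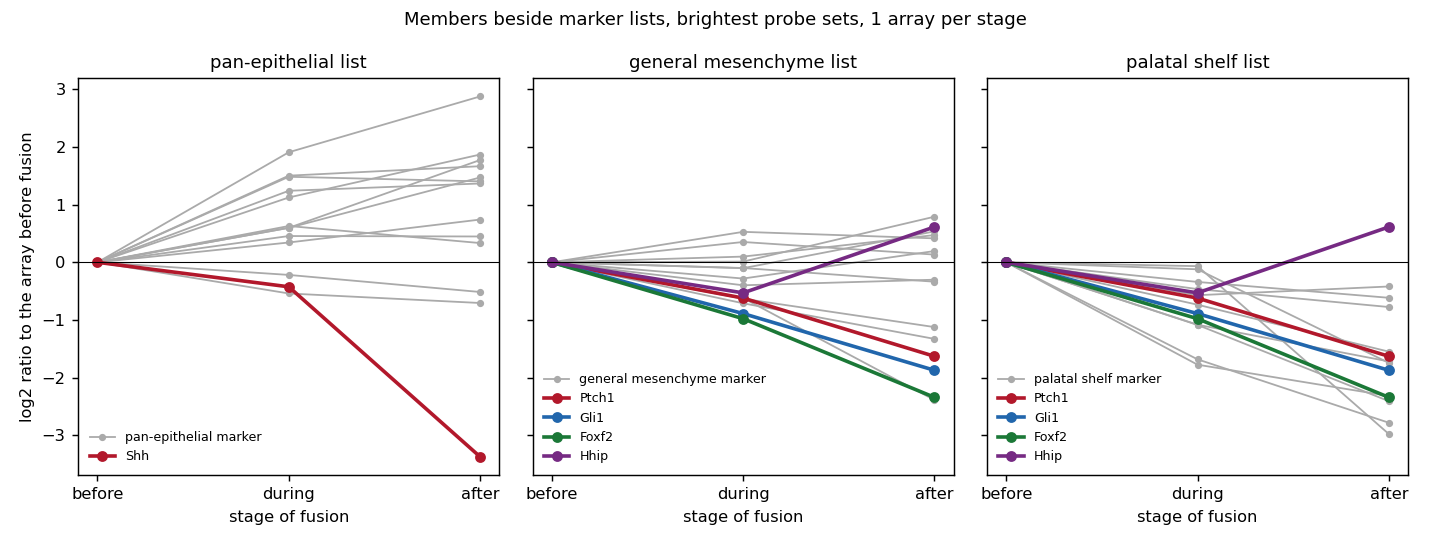
Log2 ratio of scaled signals to the array before fusion, brightest probe sets, 1 array per stage, with single marker genes in gray and members in color. *Shh* lies at -3.37 after fusion, below all 12 pan-epithelial genes, whereas *Ptch1* (-1.63), *Gli1* (-1.87) and *Foxf2* (-2.34) run below most general mesenchyme genes and among the palatal shelf genes.

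Among the other ligands, Indian hedgehog (*Ihh*), known from cartilage and bone, read 22.4 before, 21.3 during and 43.6 after fusion. Its signal was near the floor at first and 2-fold higher after fusion than during it. Desert hedgehog (*Dhh*), known from testis and peripheral nerve, read 23.1, 28.0 and 25.2 and differed little. Of the genes that process and release ligand, the secreted *Scube1* and *Scube3*, which help free lipid-bearing ligand from the cell, read 60.6, 27.6 and 12.1, and 202, 117 and 96.6. Both were lower at each step, and *Scube1* was under the floor after fusion. Their relative *Scube2*, picked after its values were seen, went the other way, with log2 ratios of 0.89 during and 0.59 after fusion over before. In the list of 8 such genes, *Shh* included, 3 were over 2-fold lower after fusion than before, against 9.86% of all genes, and none was higher. The median log2 ratio was -0.69.

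The co-receptors, which aid ligand binding, did not move together. *Gas1*, a lipid-anchored protein, read 3438 before, 2559 during and 2038 after fusion, lower at each step with a log2 ratio of -0.75 for after over before. *Cdon* read 246, 249 and 259, and *Boc* 245, 275 and 255, and both differed by less than the spread between probe sets. In the list of 7 receptors and co-receptors, *Ptch1* alone was over 2-fold lower after fusion than before, and none was higher. Over all genes the shares were 9.86% and 12.9%, so that 1 lower gene of 7 was near the background. The median log2 ratio of the list was 0.04. With the poly-A controls, which moved the log2 ratios of all genes by a median of -0.38, 3 were lower.

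Behind the receptors, 21 genes carry the signal from the membrane to the Gli factors. Of these, 5 were over 2-fold lower after fusion than before, *Gli1* and *Gli3* included, and 2 higher, against 9.86% and 12.9% of all genes, so that the share of higher genes was no larger than the background. Over the scalings 4 to 7 were lower. The median log2 ratio was -0.30. The lower ones included restraints on the pathway. *Sufu*, which holds Gli proteins in the cytoplasm, read 404 before, 224 during and 135 after fusion, so that the log2 ratio of the last to the first was -1.58. *Gpr161*, a ciliary receptor that favors the repressor form of Gli3, read 191, 106 and 42.9, a log2 ratio of -2.15. *Evc2*, which with its partner passes the signal on from Smoothened at the base of the cilium, read 183, 110 and 78.4, a log2 ratio of -1.22. Genes of both signs of action were thus lower after fusion. The 2 higher genes were *Stk36*, needed in the mouse for motile cilia, at 36.2, 62.9 and 159, and *Efcab7*, which anchors the *Evc* proteins, at 115, 195 and 303.

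The targets known from mesenchyme had median ratios below 0 at each stage. Of 17 with a ratio, *Ptch1*, *Gli1*, *Hhip* and *Foxf2* included, 4 were over 2-fold lower and 1 higher during fusion than before, against 3.36% and 5.74% of all genes. The 4 became 3 to 9 over the scalings. The 9 came with the poly-A controls, which moved the log2 ratios of all genes by a median of -0.28 for this comparison. After fusion 8 were lower than before (8 to 10 over the scalings) and none higher, against 9.86% and 12.9%. The median log2 ratios were -0.76 and -0.94, and both stayed below 0 under each of the 6 scalings, between -1.04 and -0.48 and between -1.32 and -0.77. *Foxd1*, a forkhead gene, read 313 before, 137 during and 54.9 after fusion. *Osr2*, a zinc finger factor needed for growth of the shelves, read 887, 259 and 178, and most of its difference lay between the first and the second array. *Hsd11b2*, an enzyme that inactivates glucocorticoids, read 103, 58.2 and 27.1, and *Mycn*, which drives proliferation, read 203, 109 and 64.5. All 4 were over 2-fold lower after fusion than before. *Foxf1*, the close relative of *Foxf2* and named here after its values were seen, read 596, 210 and 254: it was 2.84-fold lower during fusion and did not go lower after it, unlike *Foxf2*. *Foxc2*, likewise named after its values were seen, read 77.1 before, 27.1 during and 57.0 after fusion. It was 2.85-fold lower during fusion than before, and after fusion 2.10-fold higher than during it. *Prdm1*, a transcriptional repressor, was the 1 gene over 2-fold higher during fusion, at 40.5, 81.0 and 39.8. It sat at the threshold and was inside it with one median, quantile normalization and the poly-A controls.

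Of the 13 genes known to act with *Shh* in the palate, 5 were over 2-fold lower and 2 higher after fusion than before, against 9.86% and 12.9% of all genes. The share of higher genes was near the background. *Msx1*, a homeobox factor that maintains *Bmp4* and through it epithelial *Shh* in the anterior palate, read 1013 before, 479 during and 308 after fusion. *Bmp4*, named here after its values were seen, read 457, 344 and 185, also lower at each step, whereas *Bmp2*, which lies downstream of *Shh*, read 213, 207 and 288. The T-box genes *Tbx2* and *Tbx3*, factors of the mesenchyme, read 313, 185 and 89.3, and 327, 173 and 98.4. *Dlx5*, a homeobox factor, and *Fgf7*, a growth factor, together restrain *Shh* in the mouse palate, and both were higher: *Dlx5* read 102, 216 and 282, and *Fgf7* 26.0, 61.7 and 65.8. The first *Fgf7* value lay near the floor of 19.4, so its ratios are uncertain. *Dlx5* is also a factor of bone-forming cells, whose markers were higher on the same arrays. Neither the part of those cells nor a link of *Dlx5* or *Fgf7* to the *Shh* signal was tested. *Fgf18*, which is held down by Foxf factors in the palate and restrains *Shh*, read 79.1, 91.1 and 53.5, with no difference over 2-fold. *Fgf10*, a mesenchymal growth factor that supports *Shh* in the epithelium, was above the floor before fusion alone, at 24.4.

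Genes of rugae and placodes, where *Shh* is made in the oral epithelium, were mixed. Of 10, *Shh* included, 3 were over 2-fold lower after fusion than before and 1 was higher, against 9.86% and 12.9% of all genes. The share of higher genes was near the background. *Lef1*, a Wnt effector, read 92.7, 38.1 and 27.6, and *Edaradd*, an adaptor of the ectodysplasin receptor, read 364, 237 and 162. *Sp5*, a Wnt target, was above the floor before fusion alone, at 27.1. *Wnt10a*, a ligand of placodes, was higher, at 78.5, 182 and 190.

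The genes of transport in the primary cilium, the organelle in which Smoothened acts, had a median ratio above 0 after fusion. Of 26, none was over 2-fold higher and 1 was lower during fusion than before, against 5.74% and 3.36% of all genes. After fusion 13 were over 2-fold higher than before and 0 lower, against 12.9% and 9.86%. The 13 became 5 when scaled by the poly-A controls, and 17 without scaling, and 4 of the 26 had a log2 ratio below 0, down to -0.39. The median log2 ratio for after over before fusion was 1.01 and ran from 0.64 to 1.19 over the scalings. *Ift172* read 121 before, 143 during and 516 after fusion, *Ift22* 390.4, 593 and 1335, and *Ift88* 161, 183 and 503, all parts of the transport trains. *Ift43* read 507, 627 and 1519, *Ift140* 379, 281 and 807, and *Tmem231*, of the gate at the base of the cilium, 156, 117 and 471. All 6 were over 2-fold higher after fusion than before, with the larger share of the log2 ratio in the step from during to after fusion. Ciliated cells use the same transport genes, and the markers of those cells summed to 134 before, 1064 during and 5929 after fusion. The part of ciliated cells in the higher signals was not tested.

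**Figure D4:**
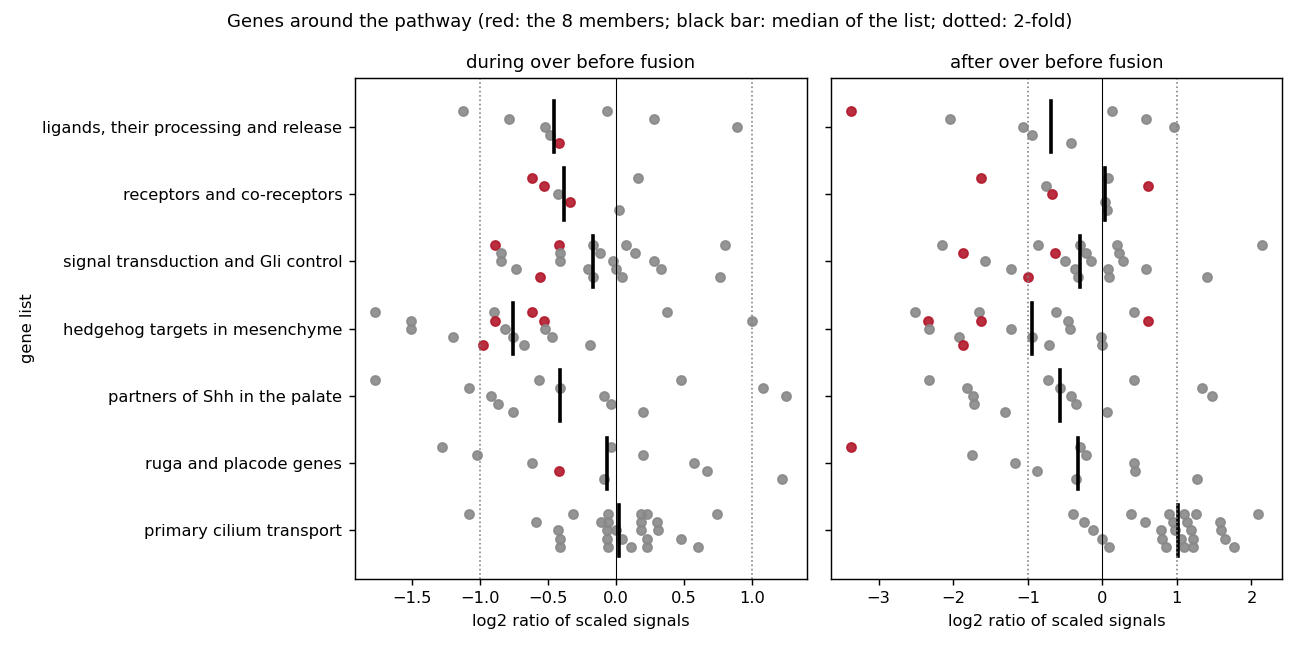
Log2 ratio of scaled signals during over before and after over before fusion for genes of 7 lists around the pathway, brightest probe set per gene, with the 8 members in red, the median of each list as a black bar and 2-fold dotted. After fusion the target list has a median of -0.94 and the primary cilium list one of 1.01.

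The genes whose pattern lay nearest to that of *Shh* were sought among 5692 genes above the floor with a mean signal within 4-fold of its own, by the Euclidean distance between the log2 ratios for during over before and after over before fusion on the 3 arrays. They were *Epha7*, an ephrin receptor (distance 0.41), *Nnat* (0.79), *Nme1* (0.93), *Bex2* (0.93) and the mesenchyme factor *Prrx1* (1.00). The log2 ratios of *Epha7* were -0.84 and -3.40, beside -0.42 and -3.37 for *Shh*. *Epha7* read 640.2 before, 358 during and 60.9 after fusion, so that more of its difference fell in the first step than for *Shh*. Of 4192 genes, those nearest to *Ptch1* were *Rps4l* (0.02), *Igsf9* (0.06), *Efna4* (0.08), *Limd2* (0.08) and *Zfp799* (0.10). The log2 ratios of these 5 lay within the spread between probe sets of those of *Ptch1*, and with 3 arrays many genes must lie near any pattern of this size.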

How the data were processed

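RNA from the edge of the shelves or from the midline was hybridized to 1 array per stage. The authors computed the deposited intensities, with 1 linear MAS5 signal for each probe set, as the submitters' processing notes and the paper's methods state. Any scaling target is not given in the sources used here. Stage and strain came from the sample labels, and hours in culture from the legend of the study's histology. The labels name a column kit for the RNA and the paper's methods another reagent.

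From these intensities a trimmed mean, leaving out the top and bottom 2%, was made equal across arrays, by factors of 1.11 before, 0.918 during and 0.986 after fusion, since the deposited trimmed means were 123.6, 150.0 and 139.7. Of 45101 probe sets 64 were controls. Of the rest, 34945 name 1 gene, 932 several and 9160 none, and 34741 symbols were matched by gene ID to RefSeq on GRCm38.p6, used for names and promoters. Each gene took its brightest probe set. Between 56.8% and 65.6% of the probe sets lay above the floor of an array. A gene was counted past 2-fold, and a gene with both signals under the floor, or with a bound of unclear direction, was given no ratio. Precision is limited by the number of arrays, and with 1 per stage the spread between samples of a stage is unknown.

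The members and the 20 lists (181 genes, 172 with a probe set) were chosen with earlier results of these data known. Named genes were the 8 members, the genes past 2-fold in each of the 7 pathway lists (at most 6 per list, those with the largest ratios), *Ihh* and *Dhh*, up to 3 of the brightest genes of a cell type list, and the 5 genes most like *Shh* and *Ptch1*. *Hhip* and the co-receptors, *Scube2*, the mesenchyme genes of the reduced list, *Foxf1*, *Foxc2*, *Bmp2*, *Bmp4*, *Fgf10*, *Fgf18*, *Trp63*, *Esrp1*, *Tbx22*, *Mcm5*, *Elavl4*, *Acan*, *Matn1* and *Comp* were named whatever the rule. Alternatives were no floor, a floor at the median, other scalings (one median, quantiles, signals as deposited, hybridization controls, poly-A controls), the median over probe sets, a 4-fold threshold, and division by the summed signal of a cell type list. Those lists without keratins, collagens, *Fn1* and *Vim* were chosen after seeing the data. The steps were run on simulated data with known fold changes, in Python 3.11.15 with numpy 2.4.6, pandas 2.3.3, scipy 1.17.1 and matplotlib 3.10.9. Those changes were set only in probe sets well above the floor, with noise smaller than the spread between all probe sets. The simulation therefore does not cover changes at dim signals such as those of *Hhip*.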

Additional observations from a re-analysis of the deposited data

How the results depend on the processing

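No paired analysis was possible because each stage has 1 array. The floor did not enter the members' ratios, since their brightest probe sets lay above it, and another scaling moves all genes nearly alike, so neither tests how stable they are. The sign changed for 8 ratios, all 8 when divided by the 7 mesenchyme genes left without collagens, *Fn1* and *Vim*. Of these only *Gli3* had been past 2-fold: its log2 ratio for after over before fusion was then 0.07. Members over 2-fold lower during fusion than before were 2 (*Gli1* and *Foxf2*), not 0, with one median and with the poly-A controls. Between the last arrays the 1 higher member was lost (0) with the hybridization controls, with the median over all probe sets and with a 4-fold threshold, and the 3 lower members became 1 with the median over all probe sets and 1 at 4-fold. At 4-fold, 2 members in place of 5 were lower after fusion than before. With the median over all probe sets, which takes in probe sets under the floor, the log2 ratio of *Shh* after fusion was -2.53 over the array before and -2.12 over that during fusion, and that of *Ptch1* for after over before was -0.44. Over the pan-epithelial sum the log2 ratio of *Shh* was -1.30 for during over before and -4.66 for after over before, and without keratins -0.92 and -3.87. Scaling moved the median log2 ratio of all genes by up to 0.28 for during over before fusion, where no scaling was applied, and poly-A scaling moved that for after over before fusion by -0.38. Signals under about 50, as in *Hhip* and the dimmer probe sets, lie within a few times the floor, and among probe sets between the floor and 100 the SD between probe sets was 0.46 for during over before and 0.53 for the other comparisons.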
